A study of Mus musculus with 22 samples.

Results

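H3K27ac, histone H3 acetylated on lysine 27, marks active promoters and enhancers. It was measured by ChIP–seq at the genes of 6 families of membrane carriers in Kupffer cells, macrophages that live in the mouse liver. The families were the hexose transporters (Slc2a), the cationic and heteromeric amino acid transporters (Slc7a), the sodium-coupled neutral amino acid transporters (Slc38a), the mitochondrial carriers (Slc25a), the nucleotide sugar transporters and their relatives (Slc35) and the zinc and iron importers of the ZIP type (Slc39a). Every autosomal window whose assigned gene name begins with 1 of these prefixes was taken, which gave 609 of 96381 windows, at 106 of 17276 named genes. A window spans 1000 bp around an ATAC–seq peak and carries the name of the gene with the nearest transcription start site (TSS), so a window can lie inside a neighboring gene. Of the 609 windows, 345 lay in a transcript of the gene they are named for, 55 in a transcript of another gene and 209 between genes. The names Slc7a6os and Slc2a4rg-ps begin with these prefixes too, although neither encodes a transporter.

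Kupffer cells were sorted from livers of male mice, 8 to 12 weeks old, of the inbred strains A/J, BALB/cJ and C57BL/6J and of the hybrid CB6F1/J, all in the control condition, with no LPS. The hybrid has a BALB/cJ mother and a C57BL/6J father, so in it allele and parent of origin cannot be told apart. There were 3 H3K27ac libraries for each strain and 3 for the hybrid. In the hybrid, reads that span a variant were counted for each allele in regions of 200 bp, of which 1285 carry the name of a carrier gene. The questions were where the acetylation of carrier genes differs between strains, and whether the 2 alleles differ when they share a nucleus. Nothing in the labels says that libraries of a group came from separate animals, so p-values measure the spread between these libraries.

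Carriers of the SLC type move small molecules across membranes that these molecules cannot cross alone. Slc2a proteins let hexoses run down their gradient, and the light chains of the Slc7a family pair with a heavy chain, Slc3a1 or Slc3a2, to exchange amino acids across the plasma membrane. Slc25a proteins sit in the inner mitochondrial membrane and exchange metabolites, nucleotides and cofactors between cytosol and matrix. In macrophages these supplies feed glycolysis, glutathione and arginine metabolism, and Kupffer cells also recycle iron from senescent red cells, in which mitochondrial iron carriers and ZIP importers take part.

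The 9 parental libraries held 2291426 to 12980348 tags in windows, and the 3 libraries numbered 2 were the shallowest. All 10 Kupffer cell markers examined had tested windows, the highest window of each gene averaging 106 to 418 normalized counts. Stellate cell markers were near background (none of 2 windows tested), while 4 of 6 endothelial genes had tested windows, led by 1 at 381, and 5 of 8 hepatocyte genes, led by 1 at 176. Of 5 monocyte and neutrophil genes 4 had tested windows, led by 1 at 617, above every Kupffer cell marker. Tested windows were also found at 2 of 4 T and NK cell genes, led by 1 at 205, and at 1 of 3 B cell genes, at 56.1. Of the 7 tested B cell windows, 2 were called lower and 0 higher in A/J over BALB/cJ, and 1 lower and 0 higher in A/J over C57BL/6J. Summed over its windows, the hepatocyte list ranged from 484 to 615 over A/J libraries, 604 to 701 over BALB/cJ libraries and 678 to 758 over C57BL/6J libraries. The corresponding endothelial sums were 2070.5 to 2485, 1994 to 2406 and 1835 to 2029.9. Dendritic cell marker sums were 331 to 482, 390.1 to 519.6 and 573 to 653 in that strain order, so C57BL/6J lay above both others. Of 165 tested windows of Kupffer cell markers, 2 were called higher and 0 lower in A/J over BALB/cJ, 4 higher and 12 lower in A/J over C57BL/6J, and 5 higher and 21 lower in BALB/cJ over C57BL/6J. The part of these differences in the carrier results was not tested. Slc38a4, an amino acid transporter best known from hepatocytes, had 5 windows and none above 8.74 normalized counts, so no window of it was tested. In a bulk sample, fewer cells of a type and less acetylation per cell cannot be told apart.

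Of the 609 carrier windows, 381 had a mean normalized count above 16 and were tested (62.6%, against 62.7% of all windows), at 87 of the 106 genes. Normalized counts are counts scaled to a common library size. No window was tested at 19 genes, which include Slc2a3, Slc2a4 and Slc7a5, and 52 of the 609 windows belong to ATAC–seq peaks found only after LPS. The mean is taken over all parental libraries, so a window acetylated in a single strain can miss the filter. The TSS window of Slc7a2 had 40.0, 18.6 and 35.9 in C57BL/6J libraries, against means of 4.19 in A/J and 3.43 in BALB/cJ, and was not tested. Tested carrier windows had a median level of 80.8 normalized counts, against 72.5 over all tested windows. Neighboring windows overlap, and 147 of the 381 tested windows overlapped the tested carrier window before them, so adjacent windows are not independent readings.

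A window was called when its adjusted p was under 0.05 over all windows tested and its log2 fold change was over 1 in size. A/J over BALB/cJ gave 23 called carrier windows at 12 genes, 8 higher and 15 lower in A/J, or 6.04% of those tested. Over all 60387 tested windows the called share was 3.63%, with 1.40% higher and 2.23% lower. A/J over C57BL/6J gave 49 called windows at 23 genes, 19 higher and 30 lower in A/J, or 12.9%, against 7.09% over all windows (3.16% higher and 3.93% lower). BALB/cJ over C57BL/6J gave 47 called windows at 23 genes, 25 higher and 22 lower in BALB/cJ, or 12.3%, against 8.56% over all windows (4.46% higher and 4.10% lower). Merged where they overlapped, the called windows formed 17, 37 and 35 separate stretches in these 3 comparisons. The 3 libraries of one strain lay all above or all below those of the other in each of the 23, 49 and 47 windows. The windows were selected on these same libraries, so this separation is not further evidence.

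The shares moved with single libraries, among carriers and over all windows alike. Leaving out the libraries numbered 2 left 24, 60 and 62 called windows, among them 20, 44 and 43 of those above, or 5.81%, 14.5% and 15.0% of the carrier windows then tested, against 3.99%, 9.20% and 10.7% over all windows. Without C57BL/6J library 3, A/J over C57BL/6J gave 28 calls (7.43%, against 4.60% over all windows). Without BALB/cJ library 3, A/J over BALB/cJ gave 14 (3.68%, against 2.24%). The 3 comparisons share libraries, so their counts are not separate evidence.

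Called windows were mostly away from start sites. Within 1000 bp of a TSS, 3, 7 and 6 of 141 tested carrier windows were called in A/J over BALB/cJ, A/J over C57BL/6J and BALB/cJ over C57BL/6J. Farther away, 20, 42 and 41 of 240 were called. Over all windows the shares were 1.60%, 3.00% and 3.91% near a TSS and 4.51%, 8.85% and 10.6% farther away. The median log2 fold change of carrier windows was -0.07, -0.05 and -0.01 in the 3 comparisons, against 0.01, -0.01 and -0.01 over all windows.

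By family, 24 of 142 tested Slc25a windows were called in at least 1 comparison, 18 of 65 Slc7a windows, 11 of 61 Slc35 windows, 8 of 57 Slc38a windows, 6 of 19 Slc2a windows and 5 of 37 Slc39a windows. That makes 72 of the 381 tested carrier windows, while over all 60387 tested windows 12.3% were called in at least 1 comparison. All called Slc2a windows were higher in C57BL/6J than in the strain compared with it, and all called Slc39a windows of the comparisons with C57BL/6J were lower in C57BL/6J. The other 4 families had calls in both directions in at least 1 of those comparisons. In all, 33 genes had a called window and 54 tested genes had none. A gene counts here when any of its windows was called in any comparison. These gene counts therefore cannot be set against the shares of windows.

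**Figure D1:**
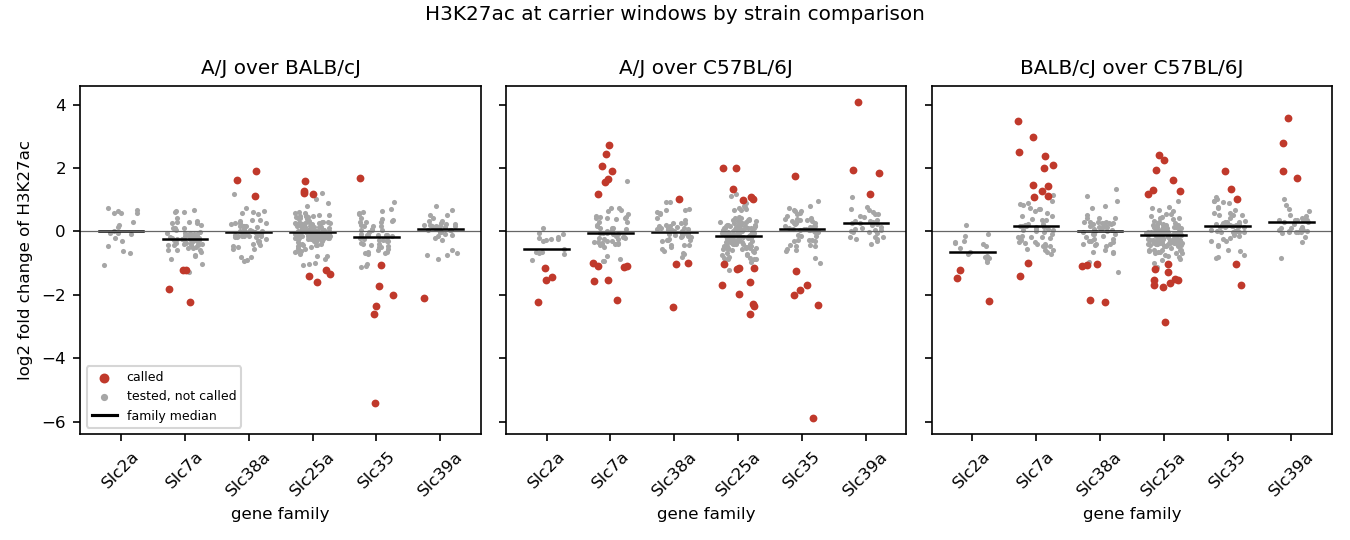
The log2 fold change of H3K27ac (y axis) is plotted for each of the 381 tested carrier windows by gene family (x axis), in a panel for each strain comparison. Red points are called windows, grey points are tested windows that were not called, and black lines are family medians. Most points lie near 0, and the lowest are the A/J values of 1 Slc35 window near -5.42 and -5.89.

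Start sites of carrier genes spanned a wide range of acetylation. The level of the TSS window was highest for Slc39a1, a plasma membrane zinc importer, at 712 ± 56.1 normalized counts for A/J, 686 ± 128 for BALB/cJ and 687 ± 176 for C57BL/6J (SD, n = 3 each). It was not called in any comparison. Slc35e2, an orphan relative of the nucleotide sugar transporters, averaged 445 over the 9 libraries. Slc25a51, the mammalian carrier of NAD+ into mitochondria, averaged 435, and the phosphate carrier Slc25a3 averaged 427. Among amino acid transporters the TSS of Slc38a1 averaged 404, that of Slc7a7 319 and that of Slc38a2 278. All windows have the same length. The levels are not scaled to ChIP input and the windows lie at different distances from the TSS, so their order between genes is approximate. The next start sites in their families were those of Slc25a39 at 427, Slc35b1, the transporter of ATP into the endoplasmic reticulum, at 318, Slc35c1 at 280.4, Slc38a6 at 224, Slc39a7 at 441 and Slc39a10 at 385. Hexose transporters were lower, with Slc2a6 at 205, Slc2a1 at 127 and Slc2a8 at 69.5, as were Slc7a6os at 176 and Slc7a1 at 70.8. Low start sites that still passed the filter were those of Slc39a14, an importer of zinc and non-transferrin iron, at 35.1, and Slc35a1, the CMP-sialic acid transporter, at 53.8. Slc39a8, which also carries manganese, had 69.0, and Slc25a20, the carnitine–acylcarnitine carrier of fatty acid oxidation, had 71.7. The glucose transporter Slc2a3 was at 6.25 and the cystine–glutamate exchanger Slc7a11 at 11.7, both under the filter. No window of Slc7a5, the large neutral amino acid transporter of activated cells, passed it, and Slc25a5, an ADP/ATP carrier, is X-linked and was left out.

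Among the hexose transporters, 19 of 49 windows were tested, and 6 were called, at Slc2a1, Slc2a5, Slc2a6 and Slc2a9. Slc2a5 transports fructose. A window 8.804 kb upstream of its TSS, between genes (chr4:150110040-150111040, mm10, as the file gives it), had 33.9, 20.8 and 18.1 normalized counts in A/J libraries, 27.9, 20.6 and 26.3 in BALB/cJ libraries and 127, 116 and 111 in C57BL/6J libraries. The C57BL/6J libraries thus lay far above those of the other strains, which overlapped each other. The acetylation was lower in A/J than in C57BL/6J (log2 fold change -2.24 ± 0.29 (SE), adjusted p = 5.4e-06) and lower in BALB/cJ than in C57BL/6J (-2.19 ± 0.29, adjusted p = 6.2e-06), and both calls held without any single library.

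Slc2a1 is the widely expressed glucose transporter GLUT1. In intron 2 of 9, 16.244 kb into the gene (chr4:119124489-119125489), its acetylation was graded, with 120.0, 133 and 127 in A/J, 76.8, 50.4 and 90.5 in BALB/cJ and 217, 191 and 212 in C57BL/6J. No library of one strain reached into the range of another. The comparison of BALB/cJ with C57BL/6J was called (log2 fold change -1.47 ± 0.24 (SE), adjusted p = 8.4e-05), while A/J over C57BL/6J had a log2 fold change of -0.72 and missed the threshold (adjusted p = 0.053). The TSS window of the same gene was not called in any comparison, at 142 ± 52.9 for A/J, 92.5 ± 18.4 for BALB/cJ and 145 ± 17.1 for C57BL/6J.

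Slc2a6 encodes a lysosomal hexose transporter known from activated macrophages. Its first intron, 0.5 kb past the TSS, had 32.4, 26.7 and 25.2 in A/J, 62.5, 45.8 and 28.5 in BALB/cJ and 81.3, 69.9 and 79.4 in C57BL/6J, so that A/J and BALB/cJ overlapped below C57BL/6J. A/J was lower than C57BL/6J (log2 fold change -1.44 ± 0.31 (SE), adjusted p = 0.0024). The other window of Slc2a6 called in this comparison, with a larger fold change, was lost in 5 leave-one-out fits (adjusted p up to 0.13). At Slc2a9, a urate transporter, the first exon gave 29.4, 26.7 and 22.0 in A/J, 38.8, 27.5 and 37.2 in BALB/cJ and 54.6, 48.9 and 67.4 in C57BL/6J. A/J over C57BL/6J was called there (-1.17 ± 0.30, adjusted p = 0.014), but not without A/J library 3 (adjusted p = 0.11) or C57BL/6J library 3 (adjusted p = 0.14).

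**Figure D2:**
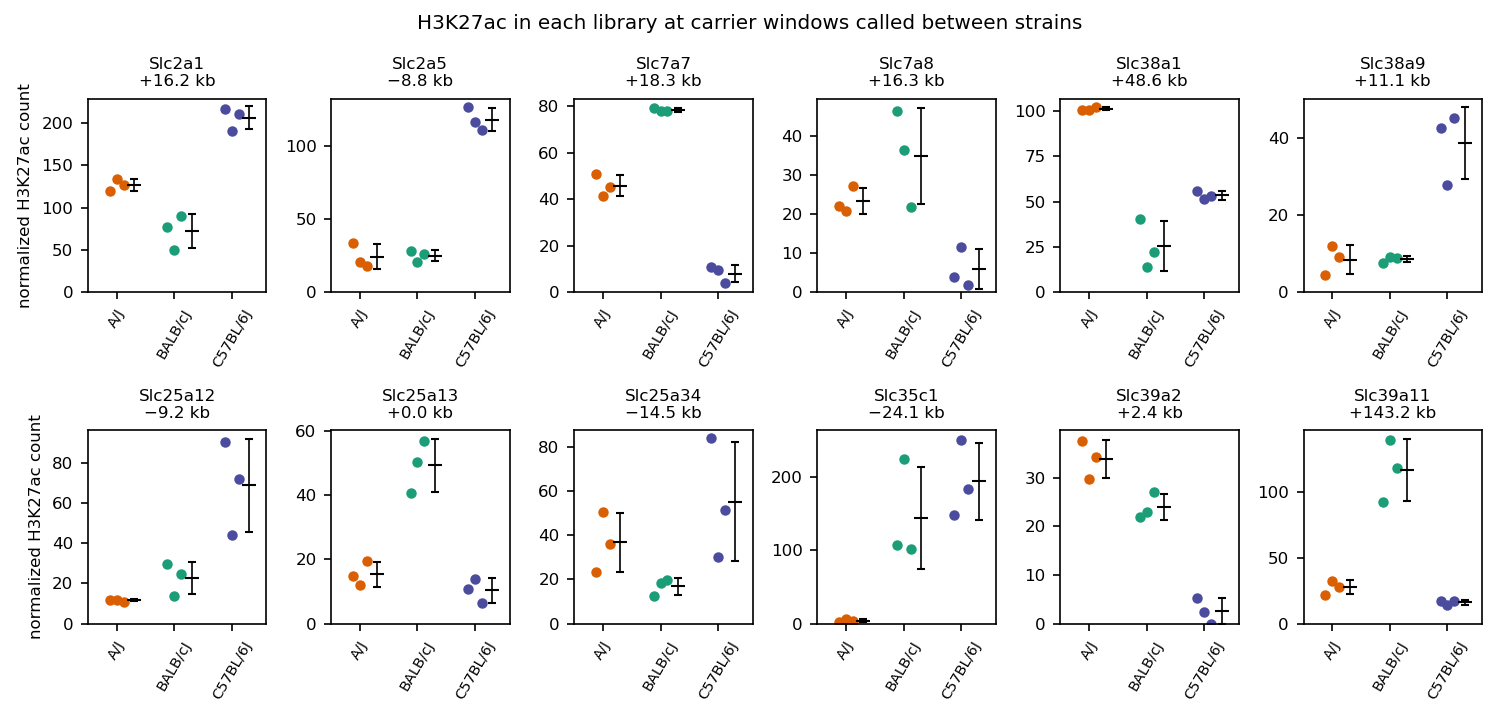
Normalized H3K27ac counts (y axis, starting at 0) are shown for 12 called carrier windows in each library of the 3 strains (x axis), with the distance to the TSS above each panel. Points are libraries, and black marks with bars are the mean and SD of 3 libraries. At Slc35c1 the A/J libraries sit between 2.21 and 5.93, and those of the other strains above 100.

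Slc7a7 is the light chain of system y+L, which exports cationic amino acids. In its intron 4 of 11, windows between 16.736 and 23.304 kb from the TSS had less acetylation in C57BL/6J. BALB/cJ was higher than C57BL/6J in 5 of them and A/J in 4, all but the one at 16.736 kb, where the BALB/cJ call was lost without C57BL/6J library 2 (fold change 0.91) or the shallow libraries (fold change 0.81). At 18.328 kb the libraries held 50.8, 41.5 and 45.3 in A/J, 79.4, 77.8 and 78.1 in BALB/cJ and 10.7, 9.31 and 3.78 in C57BL/6J. All 6 libraries of A/J and BALB/cJ lay above 40, and all 3 of C57BL/6J under 11. A/J over C57BL/6J gave a log2 fold change of 2.74 ± 0.39 (SE), adjusted p = 1.6e-05, and BALB/cJ over C57BL/6J gave 3.49 ± 0.38, adjusted p = 2.5e-07. ChIP input, DNA without immunoprecipitation given in CPM (counts scaled to library size), was 7.50 CPM for A/J, 7.82 for BALB/cJ and 5.14 for C57BL/6J, where it rests on 3 reads of 1 library. The neighbor at 21.545 kb had 50.9 ± 19.8, 59.6 ± 13.4 and 11.6 ± 4.98 (SD, n = 3 each) in the same strain order, and both comparisons with C57BL/6J were called. The A/J calls at 20.568 and 23.304 kb did not hold without C57BL/6J library 3 (adjusted p = 0.092 and 0.081). In the promoter of Slc7a7 no window was called, and the TSS window averaged 329 ± 47.0 for A/J, 342 ± 27.9 for BALB/cJ and 286 ± 61.3 for C57BL/6J.

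Slc7a8 pairs with Slc3a2 to exchange neutral amino acids, and its windows differed in both directions. Its promoter (chr14:54781422-54782422) had 47.1, 59.3 and 42.0 in A/J, 49.8, 54.9 and 48.9 in BALB/cJ and 77.3, 126 and 106 in C57BL/6J. The C57BL/6J libraries were above all others, while A/J and BALB/cJ overlapped. A/J was lower than C57BL/6J (log2 fold change -1.09 ± 0.27 (SE), adjusted p = 0.0083), and so was BALB/cJ at the edge of the fold threshold (-1.005 ± 0.26, adjusted p = 0.013). With a block for the replicate number the second fold change was -0.98 and the call was lost, as it was with DESeq2 (-0.995) and without the shallow libraries (-0.93). The A/J call was lost without A/J library 3 (adjusted p = 0.072) or C57BL/6J library 2 (fold change -0.96) or 3 (adjusted p = 0.054). The BALB/cJ call was lost without BALB/cJ library 1 (adjusted p = 0.054) or 3 (adjusted p = 0.068) or C57BL/6J library 2 (fold change -0.87) or 3 (adjusted p = 0.069).

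Further into intron 1 of 10, at 10.697 kb, the libraries held 88.3, 68.2 and 106 in A/J, 79.4, 77.8 and 61.3 in BALB/cJ and 172, 130.4 and 264 in C57BL/6J, again lower in A/J (-1.10 ± 0.26, adjusted p = 0.0064) and in BALB/cJ (-1.41 ± 0.27, adjusted p = 0.00055). The A/J call was lost without C57BL/6J library 3 (adjusted p = 0.14) or A/J library 2 (fold change -0.99). At 16.34 kb in the same intron the order was turned round, with 22.1, 20.8 and 27.2 in A/J, 46.4, 36.6 and 21.9 in BALB/cJ and 4.00, 11.6 and 1.89 in C57BL/6J. Here A/J (2.44 ± 0.55, adjusted p = 0.0041) and BALB/cJ (2.97 ± 0.54, adjusted p = 0.00035) were higher than C57BL/6J. The A/J call at this window did not hold without C57BL/6J library 3 (adjusted p = 0.11). In A/J over C57BL/6J, Slc7a8 and Slc25a33 were the only carrier genes with called windows in both directions, and in BALB/cJ over C57BL/6J Slc7a8 was the only one.

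The promoter of Slc7a8 is printed because its acetylation differed between strains at the TSS itself. Sequences here are from the C57BL/6J reference (GRCm38, plus strand unless stated) in lower case. Capitals mark matches on either strand to TGANTCA (AP-1), TGATGNAA (amino acid response), TGACNNNGC (antioxidant response), TGCNCNC (metal response), CACGTG (E-box) or GAGGAAGT (PU.1), where a base can belong to more than 1 match. The Slc7a8 promoter is taken from the RefSeq table (GRCm38.p6, chr14:54781837-54782136, minus strand, 250 bases before to 50 after the start) and held 4 matches to the metal response letters. Matches of this kind were found in 51.0% of the 32851 promoters of the table and say nothing of binding.
Slc7a8 promoter: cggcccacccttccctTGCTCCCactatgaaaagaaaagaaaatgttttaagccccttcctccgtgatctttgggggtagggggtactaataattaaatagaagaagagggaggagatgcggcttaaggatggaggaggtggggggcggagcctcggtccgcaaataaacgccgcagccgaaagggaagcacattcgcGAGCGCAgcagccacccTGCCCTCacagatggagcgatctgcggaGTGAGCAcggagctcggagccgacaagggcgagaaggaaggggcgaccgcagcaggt

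**Figure D3:**
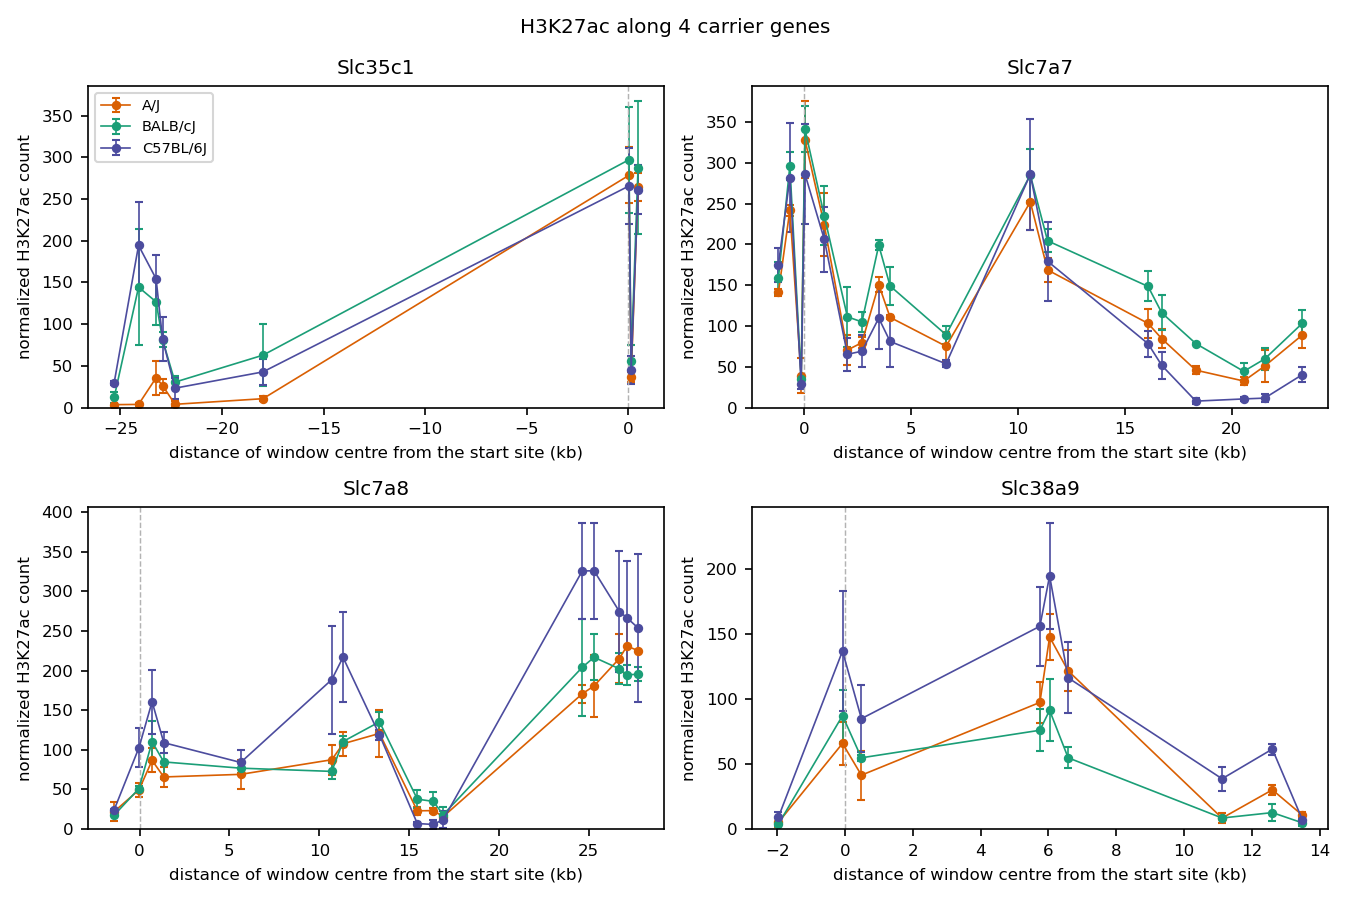
Mean normalized H3K27ac counts (y axis) are plotted against the distance of the window center from the TSS in kb (x axis, dashed line at 0) along Slc35c1, Slc7a7, Slc7a8 and Slc38a9. Colors are the strains and bars the SD of 3 libraries. The A/J line falls away from the others upstream of Slc35c1, and the C57BL/6J line lies under the others at 18.328 kb in Slc7a7 and above them at 10.697 kb in Slc7a8.

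The remaining Slc7a calls were at Slc7a11, Slc7a13 and Slc7a14. Slc7a11 imports cystine for glutathione synthesis. In intron 6, at 37.475 kb, it had 22.1, 20.8 and 20.1 in A/J, 20.3, 27.5 and 13.9 in BALB/cJ and 6.66, 9.31 and 6.30 in C57BL/6J, so that C57BL/6J was lowest in a window of low counts. A/J (log2 fold change 1.57 ± 0.46 (SE), adjusted p = 0.032) and BALB/cJ (1.45 ± 0.47, adjusted p = 0.045) were higher than C57BL/6J, yet both calls were lost without C57BL/6J library 3 (adjusted p = 0.20 and 0.22) or 1 (adjusted p = 0.11 and 0.13) and with DESeq2 (adjusted p = 0.065 and 0.076). The BALB/cJ call was also lost with no filter on low counts (adjusted p = 0.058) and without the shallow libraries (adjusted p = 0.087), and without some other single libraries the window fell under the filter. The other Slc7a11 window called in BALB/cJ over C57BL/6J, with a larger fold change, was lost in 3 leave-one-out fits (adjusted p up to 0.085). That call held with DESeq2 and without the shallow libraries. The 4 tested windows named for Slc7a14, an orphan member of the family, lie 79.815 to 115.245 kb upstream of its TSS. All 4 were lower in A/J than in BALB/cJ and C57BL/6J. At 103.903 kb upstream the counts were 9.57, 8.90 and 11 in A/J, 38.8, 18.3 and 43.8 in BALB/cJ and 64.0, 32.6 and 38.4 in C57BL/6J (-1.81 ± 0.40, adjusted p = 0.0068 on the log2 scale against BALB/cJ and -2.15 ± 0.40, adjusted p = 0.00056 against C57BL/6J). Without BALB/cJ library 3 the calls against BALB/cJ were lost in 3 of the 4 windows, at 79.815, 83.797 and 103.903 kb (adjusted p = 0.072, 0.10 and 0.081), and without A/J library 3 in 2, at 79.815 and 83.797 kb (adjusted p = 0.20 and 0.097). At 79.815 kb 4 leave-one-out fits ended the call against BALB/cJ and 4 the call against C57BL/6J (adjusted p up to 0.20 and 0.16). The call against C57BL/6J at 115.245 kb was lost in 5 (adjusted p up to 0.29), with DESeq2 (adjusted p = 0.054) and with only the libraries of these strains (adjusted p = 0.062). Downstream of Slc7a13, at 37.555 kb, BALB/cJ was higher than C57BL/6J (1.28 ± 0.35, adjusted p = 0.018), which was lost without C57BL/6J library 3 (adjusted p = 0.17) or 1 (adjusted p = 0.058) or BALB/cJ library 3 (adjusted p = 0.061). Slc7a1, the main importer of arginine, had no called window, nor had Slc7a6, and the tested TSS window of Slc7a1 averaged 87.2 ± 33.2 for A/J, 53.8 ± 31.1 for BALB/cJ and 71.4 ± 28.2 for C57BL/6J.

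In the Slc38a family the calls belonged to Slc38a9 and Slc38a1. Slc38a9 is a lysosomal arginine sensor and transporter upstream of mTORC1. Its introns 1 and 2 held lower acetylation in BALB/cJ than in C57BL/6J at 5 windows. Of these, 2 were still called without BALB/cJ library 2 and 1 without C57BL/6J library 3, when the 3 between 5.746 and 6.579 kb were lost and the one at 11.118 kb fell under the filter. The call at 5.746 kb was also lost with DESeq2 (fold change -0.997) and without C57BL/6J library 1 (fold change -0.97). At 12.601 kb, in intron 2 of 14, there were 29.4, 26.7 and 34.3 in A/J, 19.4, 6.87 and 11.7 in BALB/cJ and 59.96, 58.2 and 66.1 in C57BL/6J, 3 ranges without overlap. There BALB/cJ over C57BL/6J gave a log2 fold change of -2.17 ± 0.35 (SE), adjusted p = 7.7e-05. A/J over C57BL/6J was just past both thresholds (-1.002 ± 0.32, adjusted p = 0.048) and was lost in 7 of the 9 leave-one-out fits, with adjusted p up to 0.21, as well as with DESeq2 (adjusted p = 0.075) and with a minimum count of 32 or none (adjusted p = 0.055 and 0.057). Nearby, at 11.118 kb, A/J had 4.42, 11.9 and 9.06 and BALB/cJ 7.60, 9.16 and 8.76, against 42.6, 27.9 and 45.3 in C57BL/6J. The first 2 strains overlapped, and both were lower than C57BL/6J (-2.37 ± 0.43, adjusted p = 0.00041 for A/J and -2.23 ± 0.42, adjusted p = 0.00063 for BALB/cJ). At 6.579 kb in intron 1 BALB/cJ alone was low, with 105, 136 and 122.9 in A/J, 60.8, 45.8 and 57.7 in BALB/cJ and 109, 93.1 and 146 in C57BL/6J. A/J was higher than BALB/cJ there (1.10 ± 0.25, adjusted p = 0.0082) and missed the threshold against C57BL/6J (adjusted p = 0.98). Without the shallow libraries the first fold change was 0.94 and the call was lost. BALB/cJ was lower than C57BL/6J (-1.08 ± 0.25, adjusted p = 0.0044), but not without C57BL/6J library 3 (adjusted p = 0.070) or BALB/cJ library 2 (fold change -0.9988).

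The Slc38a9 promoter (chr13:112660192-112661192) had 78.8, 47.5 and 71.2 in A/J, 97.9, 64.1 and 99.3 in BALB/cJ and 163, 83.8 and 164 in C57BL/6J. A/J was lower than C57BL/6J (log2 fold change -1.03 ± 0.27 (SE), adjusted p = 0.017), a call lost without C57BL/6J library 3 (adjusted p = 0.14), library 1 (adjusted p = 0.097), or A/J library 3 (adjusted p = 0.058) or 2 (adjusted p = 0.051). It is shown as another promoter called at its TSS (GRCm38.p6, chr13:112660516-112660815, plus strand) and held none of the 6 motifs.
Slc38a9 promoter: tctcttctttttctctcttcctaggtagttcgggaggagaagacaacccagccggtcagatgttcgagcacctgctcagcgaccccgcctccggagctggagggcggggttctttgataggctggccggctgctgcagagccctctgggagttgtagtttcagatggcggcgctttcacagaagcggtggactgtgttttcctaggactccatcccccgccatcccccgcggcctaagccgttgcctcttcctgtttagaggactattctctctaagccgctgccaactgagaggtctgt

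Slc38a1 and Slc38a2 import glutamine. In intron 4 of 15 of Slc38a1, at 48.627 kb, the A/J libraries had 101, 101 and 102, against 40.5, 13.7 and 21.9 in BALB/cJ and 56.0, 51.2 and 52.9 in C57BL/6J. All A/J libraries lay above the others, and A/J was higher than BALB/cJ (log2 fold change 1.90 ± 0.30 (SE), adjusted p = 0.00016). The overlapping window at 47.852 kb was also called in A/J over C57BL/6J (log2 fold change 1.01), but with the replicate block the fold change was 0.99 and the call was lost, as it was without any single library of A/J or C57BL/6J (adjusted p up to 0.081) and without the shallow ones (adjusted p = 0.076). Of the 13 tested windows of Slc38a2 none was called, although with the block 3 were called in BALB/cJ over C57BL/6J.

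Mitochondrial carriers made up the largest family, with 142 of 202 windows tested at 35 of 40 genes. The paired aspartate–glutamate carriers Slc25a12 and Slc25a13, which feed the malate–aspartate shuttle, both had called windows, with different strains standing out. Slc25a12 had 41.2, 23.7 and 43.3 normalized counts 0.923 kb upstream of its TSS in A/J, 95.4, 96.1 and 117 in BALB/cJ and 91.9, 130.4 and 147 in C57BL/6J. A/J lay below both strains (log2 fold change -1.42 ± 0.27 (SE), adjusted p = 0.0015 against BALB/cJ and -1.68 ± 0.27, adjusted p = 9.4e-05 against C57BL/6J), also without any single library. Between 9.182 and 10.553 kb upstream, 3 windows were highest in C57BL/6J. At 10.09 kb they gave 13.3, 47.5 and 24.6 in A/J, 40.5, 41.2 and 49.7 in BALB/cJ and 122.6, 102 and 147 in C57BL/6J. Both A/J (-2.37 ± 0.33, adjusted p = 1.4e-05) and BALB/cJ (-1.50 ± 0.30, adjusted p = 0.0012) were lower there. In intron 5, at 52.023 kb, A/J was instead higher than BALB/cJ (1.18 ± 0.27, adjusted p = 0.0077), which did not hold without BALB/cJ library 1 (adjusted p = 0.086).

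At Slc25a13 the promoter was highest in BALB/cJ. The TSS window (chr6:6216652-6217652) had 14.7, 11.9 and 19.4 in A/J, 40.5, 50.4 and 56.96 in BALB/cJ and 10.7, 13.97 and 6.30 in C57BL/6J, with every BALB/cJ library above all others. BALB/cJ over C57BL/6J was called in every leave-one-out fit (log2 fold change 2.40 ± 0.40 (SE), adjusted p = 0.00014). A/J over BALB/cJ was called too (-1.60 ± 0.36, adjusted p = 0.0077), but not without BALB/cJ library 3 (adjusted p = 0.086) or A/J library 1 (adjusted p = 0.051). ChIP input at this window was 11.9 CPM for A/J, 12.9 for BALB/cJ and 5.14 for C57BL/6J, the last from 3 reads. The promoter is printed because it had the largest fold change of the tested carrier TSS windows with a matching promoter in the table (GRCm38.p6, chr6:6217124-6217423, minus strand). It held 1 AP-1 match next to an E-box match with which it shares bases, and 2 metal response matches. AP-1 letters occur in 7.81% of the promoters of the table and the E-box in 7.15%.
Slc25a13 promoter: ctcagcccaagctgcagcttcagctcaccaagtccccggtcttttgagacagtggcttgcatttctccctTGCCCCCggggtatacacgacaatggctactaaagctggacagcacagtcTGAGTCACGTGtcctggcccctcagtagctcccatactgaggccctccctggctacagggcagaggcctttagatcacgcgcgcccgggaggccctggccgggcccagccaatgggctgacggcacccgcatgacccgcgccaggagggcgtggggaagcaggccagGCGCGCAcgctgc

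Slc25a26 carries S-adenosylmethionine, the methyl donor, into mitochondria. In introns 1 and 2, from 6.967 to 9.601 kb, 4 windows were higher in both A/J and BALB/cJ than in C57BL/6J. At 6.967 kb there were 41.2, 35.6 and 54.3 in A/J, 59.9, 54.9 and 49.7 in BALB/cJ and 14.7, 18.6 and 19.5 in C57BL/6J, a gap with no overlap. Here BALB/cJ over C57BL/6J gave a log2 fold change of 1.62 ± 0.32 (SE), adjusted p = 0.001. A/J over C57BL/6J (1.34 ± 0.32, adjusted p = 0.0076) was lost without A/J library 3 (adjusted p = 0.079) or C57BL/6J library 1 (adjusted p = 0.054). The A/J calls of the other 3 windows were also lost without either of these libraries, and without the shallow libraries (fold changes 0.97, 0.84 and 0.85), and the one at 9.601 kb also with the replicate block (fold change 1.00) or DESeq2 size factors (fold change 0.995). At 8.73 kb the BALB/cJ call was lost without BALB/cJ library 3 (adjusted p = 0.097) or C57BL/6J library 1 (adjusted p = 0.067). Slc25a37, mitoferrin, imports iron for heme and iron–sulfur clusters, and Slc25a28 is its second form. Intron 1 of Slc25a37, at 33.607 kb, had 38.3, 50.4 and 29.8 in A/J, 30.4, 52.6 and 31.4 in BALB/cJ and 5.33, 9.31 and 11.97 in C57BL/6J. Both A/J (1.99 ± 0.41, adjusted p = 0.0018) and BALB/cJ (1.94 ± 0.41, adjusted p = 0.0021) were higher. Intron 1 of Slc25a28 ran the other way, with 15.5, 23.7 and 23.3 in A/J, 18.6, 36.6 and 30.7 in BALB/cJ and 37.3, 88.5 and 64.9 in C57BL/6J. A/J was lower than C57BL/6J (-1.61 ± 0.36, adjusted p = 0.0041). BALB/cJ was lower too (-1.17 ± 0.35, adjusted p = 0.031), a call lost in 4 leave-one-out fits, without BALB/cJ library 1 (adjusted p = 0.18) or 3 (adjusted p = 0.080) or C57BL/6J library 2 (adjusted p = 0.11) or 3 (adjusted p = 0.14).

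Slc25a33 imports pyrimidine nucleotides into mitochondria and had 31 windows, the most of any carrier gene. Its called windows ran in both directions. At 19.614 kb upstream of the TSS C57BL/6J was far above the others, with 27.2, 23.7 and 5.82 in A/J, 9.29, 9.16 and 9.49 in BALB/cJ and 79.9, 88.5 and 45.3 in C57BL/6J. A/J (log2 fold change -1.97 ± 0.42 (SE), adjusted p = 0.0027) and BALB/cJ (-2.87 ± 0.46, adjusted p = 8.2e-05) were both lower. At 3.06 kb upstream A/J was the high strain, with 33.1, 41.5 and 23.3 against 12.7, 11.4 and 7.30 in BALB/cJ and 4.00, 13.97 and 7.56 in C57BL/6J. A/J was higher than C57BL/6J (1.99 ± 0.47, adjusted p = 0.0063) and than BALB/cJ (1.60 ± 0.44, adjusted p = 0.038). The first call was lost without C57BL/6J library 1 (adjusted p = 0.059) or 3 (adjusted p = 0.062). The second was lost without BALB/cJ library 1 (adjusted p = 0.075), 2 (adjusted p = 0.057) or 3 (adjusted p = 0.28), with DESeq2 (adjusted p = 0.063) and without the shallow libraries (adjusted p = 0.073). Without any one A/J library the window fell under the filter.

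Slc25a39, a mitochondrial glutathione carrier, had 87.6, 83.1 and 112 at 1.783 kb upstream in A/J, 179.8, 224 and 272 in BALB/cJ and 184, 172 and 283 in C57BL/6J. A/J was lower than BALB/cJ (log2 fold change -1.24 ± 0.25 (SE), adjusted p = 0.0023) and than C57BL/6J (-1.17 ± 0.25, adjusted p = 0.0019). Without C57BL/6J library 3 the second fold change was -0.90 and the call was lost. Several windows of this family lie in other genes. Some of those named for Slc25a34, an orphan carrier, lie in introns of Plekhm2, which encodes a lysosome adaptor. Another lies at the start site of Slc25a34 itself and was not called. At 18.418 kb from the Slc25a34 TSS the counts were 132, 89.0 and 122 in A/J, 46.4, 50.4 and 53.3 in BALB/cJ and 167, 107 and 204 in C57BL/6J. A/J was higher than BALB/cJ (1.22 ± 0.26, adjusted p = 0.0055), and BALB/cJ was lower than C57BL/6J (-1.70 ± 0.26, adjusted p = 5.5e-05). In BALB/cJ over C57BL/6J, 3 windows named for Slc25a34 were called, all lower in BALB/cJ, and the largest fold change was at another of them. The other window named for Slc25a34 and called in A/J over BALB/cJ was lost in 3 leave-one-out fits (adjusted p up to 0.096). A called window named for Slc25a51 lies in an intron of Shb and was lower in A/J than in C57BL/6J (log2 fold change -1.17). In BALB/cJ over C57BL/6J a window 2.285 kb upstream of Slc25a42, a mitochondrial coenzyme A carrier, had 6.75, 11.4 and 7.30 in BALB/cJ and 14.7, 23.3 and 29.0 in C57BL/6J (-1.52 ± 0.46, adjusted p = 0.032), which was lost without BALB/cJ library 1 (adjusted p = 0.14) or 3 (adjusted p = 0.14) and with DESeq2 (adjusted p = 0.074), and was under the filter without C57BL/6J library 3 or A/J library 3.

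The widest difference of all carrier windows was upstream of Slc35c1, the GDP-fucose transporter of the Golgi. At chr2:92484126-92485126, 24.108 kb upstream and between genes, there were 2.21, 5.93 and 3.23 normalized counts in A/J, 107, 224 and 102 in BALB/cJ and 148, 251 and 184 in C57BL/6J. The A/J libraries were near 0 and those of the other strains overlapped each other above 100. A/J over BALB/cJ gave a log2 fold change of -5.42 ± 0.44 (SE), adjusted p = 1e-08. The value of A/J over C57BL/6J was -5.89 ± 0.44, adjusted p = 9.3e-10, and both held without any single library. In the 4 windows from 17.984 to 23.244 kb upstream A/J was lower in both comparisons as well, although at 22.312 kb the call against C57BL/6J was lost without A/J library 3 (adjusted p = 0.075) or C57BL/6J library 2 (adjusted p = 0.068) and without the shallow libraries (adjusted p = 0.078). At 23.244 kb it had 20.6, 59.3 and 27.2, against 100.5, 156 and 124 in BALB/cJ and 124, 182 and 157 in C57BL/6J. In ChIP input the window at 24.108 kb held 4.38 CPM for A/J, 12 for BALB/cJ and 12 for C57BL/6J. At 23.244 kb the inputs were 8.91, 10.2 and 6.85 in the same order. The part of read coverage in this difference was not tested. At the TSS itself the strains did not separate, with 278 ± 33.6 for A/J, 297 ± 63.2 for BALB/cJ and 266 ± 46.1 for C57BL/6J.

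The 200 bases at the center of that window are shown because nearly no A/J signal was found there (chr2:92484527-92484726). They hold 1 metal response match, a letter pattern found in 36.1% of the centers of 96238 windows.
Slc35c1 upstream: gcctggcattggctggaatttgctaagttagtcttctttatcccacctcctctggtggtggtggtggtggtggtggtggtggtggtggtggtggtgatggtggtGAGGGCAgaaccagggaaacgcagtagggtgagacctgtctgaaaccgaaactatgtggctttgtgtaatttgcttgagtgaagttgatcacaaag

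Other Slc35 calls were smaller. Slc35a5, an orphan relative of the sialic acid transporter, had 33.9, 38.6 and 45.3 in its last intron in A/J, 47.3, 38.9 and 46.0 in BALB/cJ and 11.99, 13.97 and 10.7 in C57BL/6J. A/J (log2 fold change 1.73 ± 0.35 (SE), adjusted p = 0.0015) and BALB/cJ (1.91 ± 0.35, adjusted p = 0.00043) were both higher than C57BL/6J. Slc35e1, an orphan member, had 36.1, 41.5 and 45.3 in intron 4 in A/J, 9.29, 18.3 and 13.1 in BALB/cJ and 24.0, 69.9 and 36.5 in C57BL/6J. BALB/cJ was the low strain, both in A/J over BALB/cJ (1.68 ± 0.40, adjusted p = 0.013) and in BALB/cJ over C57BL/6J (-1.68 ± 0.41, adjusted p = 0.0066). Without BALB/cJ library 1 neither was called (adjusted p = 0.10 and 0.055), and the first was also lost without BALB/cJ library 3 (adjusted p = 0.081) or A/J library 3 (adjusted p = 0.082). Slc35f6, a lysosomal member, was highest in BALB/cJ in intron 1, with 109.7, 71.2 and 107 in A/J, 175, 176 and 259 in BALB/cJ and 108, 51.2 and 81.2 in C57BL/6J. BALB/cJ over C57BL/6J gave 1.32 ± 0.27, adjusted p = 0.0011. A/J over BALB/cJ gave -1.05 ± 0.26, adjusted p = 0.017 and was lost without BALB/cJ library 3 (adjusted p = 0.19), A/J library 2 (adjusted p = 0.064) or A/J library 3 (adjusted p = 0.055). The promoter of Slc35d2, a transporter of UDP-N-acetylglucosamine and other nucleotide sugars, had 47.1, 65.3 and 38.8 in A/J, 52.3, 91.6 and 54.8 in BALB/cJ and 103, 116 and 119 in C57BL/6J. A/J was lower than C57BL/6J (-1.24 ± 0.28, adjusted p = 0.0038). Calls at the promoter of Slc35e3 and the first exon of Slc35e4 had log2 fold changes of -1.02 and 1.02 in BALB/cJ over C57BL/6J, and both were lost without C57BL/6J library 3 (adjusted p = 0.072 and 0.30). The first was also lost without BALB/cJ library 1 (adjusted p = 0.099), and the second without C57BL/6J library 1 (adjusted p = 0.10), BALB/cJ library 2 (adjusted p = 0.17) or 3 (adjusted p = 0.069), or A/J library 3 (adjusted p = 0.054). DESeq2, a mean count over 32 and the fit without the shallow libraries ended the second call too (adjusted p = 0.057, 0.0501 and 0.058).

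Among the ZIP transporters, Slc39a2 and Slc39a11 stood out by size. Slc39a2 imports zinc at the plasma membrane. At its 3′ end (chr14:51895557-51896557) the libraries had 37.5, 29.7 and 34.3 in A/J, 22.0, 22.9 and 27.02 in BALB/cJ and 5.33, 2.33 and 0 in C57BL/6J, so the C57BL/6J signal was close to nothing. A/J (log2 fold change 4.09 ± 0.61 (SE), adjusted p = 3.7e-05) and BALB/cJ (3.57 ± 0.64, adjusted p = 0.0003) were higher. The C57BL/6J input held 0 reads in this window, against 20 for A/J and 20 for BALB/cJ, and the part of read coverage in the difference was not tested. The C57BL/6J input was a single library of 583518 tags in windows, against several deeper ones for each other strain. These raw reads are therefore not at equal depth. In intron 3 of the same gene, at 0.935 kb, where the C57BL/6J input held 4 reads, the counts were 55.2, 53.4 and 48.5 in A/J, 51.5, 27.5 and 53.3 in BALB/cJ and 15.99, 18.6 and 11.3 in C57BL/6J. Both A/J (1.85 ± 0.35, adjusted p = 0.00071) and BALB/cJ (1.67 ± 0.35, adjusted p = 0.0019) were again higher.

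Slc39a11 encodes a ZIP transporter of intracellular membranes. In intron 5 of 9, 143.167 kb into the gene, there were 22.1, 32.6 and 27.8 in A/J, 92.0, 139.6 and 118 in BALB/cJ and 17.3, 13.97 and 17.0 in C57BL/6J, with BALB/cJ far above both. BALB/cJ over C57BL/6J gave a log2 fold change of 2.80 ± 0.31 (SE), adjusted p = 3.3e-07, and A/J over BALB/cJ gave -2.12 ± 0.29, adjusted p = 2e-05. Input was 7.50 CPM for A/J, 6.54 for BALB/cJ and 18.9 for C57BL/6J, the last from a single library. The part of read coverage in this difference was not tested.

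A window 8.368 kb upstream of Slc39a13, a ZIP transporter of the early secretory pathway, had 46.4, 47.5 and 50.5 in A/J, 47.3, 54.9 and 40.9 in BALB/cJ and 10.7, 9.31 and 15.1 in C57BL/6J. A/J (log2 fold change 1.94 ± 0.34 (SE), adjusted p = 0.00028) and BALB/cJ (1.89 ± 0.34, adjusted p = 0.00036) were both higher, and no library of either overlapped C57BL/6J. Slc39a10, a plasma membrane zinc importer known from macrophages, was higher in A/J than in C57BL/6J at 1.488 kb upstream (1.17 ± 0.33, adjusted p = 0.025), which was lost without C57BL/6J library 3 (adjusted p = 0.28) or 1 (adjusted p = 0.062), or without A/J library 3 (adjusted p = 0.10). This window lies far from the TSS window whose level is given above (chr1:46853163-46854163), so its distance is counted from another start site. BALB/cJ over C57BL/6J missed the threshold at this window (adjusted p = 0.051) and passed it with the replicate block (adjusted p = 0.005). No window of Slc39a8 or Slc39a14 was called.

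The hybrid allowed allelic counts at few carrier regions. Of 1285 regions, 289 had any allelic count and 38, at 19 genes, had a mean above 16 normalized counts per allele and library. The BALB/cJ allele was called lower than the C57BL/6J allele in 5 of the 38 and higher in 0, by edgeR and by DESeq2. Over all 4467 tested regions 6.54% were called, 4.05% lower and 2.48% higher. Without the fold threshold the count was also 5. At an unadjusted p under 0.05 there were 8 of the 38 regions, against 693 of all 4467.

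The lowest BALB/cJ allele was at the region named for Slc25a34, in intron 3 of Plekhm2. It held 2.87, 1.55 and 4.04 normalized counts from the BALB/cJ allele and 33.2, 25.3 and 42.1 from the C57BL/6J allele in libraries 1, 2 and 3. Each library had far fewer counts from the BALB/cJ allele (log2 fold change -3.55 ± 0.62 (SE), adjusted p = 0.00083). The Slc25a51 promoter was lower in 2 regions as well. At 0.051 kb upstream there were 23.0, 12.4 and 14.2 from the BALB/cJ allele and 40.1, 66.0 and 60.1 from the C57BL/6J allele (log2 fold change -1.79 ± 0.41 (SE), adjusted p = 0.0084). At 0.766 kb upstream there were 31.6, 29.5 and 47.5 and 63.6, 89.7 and 90.2 in that order (log2 fold change -1.17 ± 0.32 (SE), adjusted p = 0.029). In Slc7a8, intron 1 had 5.74, 9.31 and 9.10 from the BALB/cJ allele and 30.4, 40.7 and 32.1 from the C57BL/6J allele at 1.414 kb (log2 fold change -2.05 ± 0.49 (SE), adjusted p = 0.011), and 28.7, 20.2 and 12.1 and 51.1, 49.9 and 60.1 at 11.664 kb (log2 fold change -1.42 ± 0.40 (SE), adjusted p = 0.034). In all 5 regions every library had the lower count from the BALB/cJ allele, but the regions were selected on these same counts.

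The number of allelic calls changed with single libraries and with the block, among carriers and over all regions. Both alleles are read from the same library, and with the library as a block none of the 5 was called (adjusted p = 0.059 for Slc25a34, 0.069 and 0.14 for Slc7a8, and 0.11 and 0.086 for Slc25a51). With this block none of the 4467 regions was called by edgeR either, and 782 had an unadjusted p under 0.05. Without library 2 there was 1 carrier call, Slc25a34, of 33 (3.03%, against 2.62% over all regions). Without library 3 there was none of 37, against 1.25% over all regions, and without library 1 there were 6 of 47 (12.8%, against 6.11%). The counts are small, 106 tags in all for Slc25a34 and 131.5 to 359 for the others, which limits the precision.

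**Figure D4:**
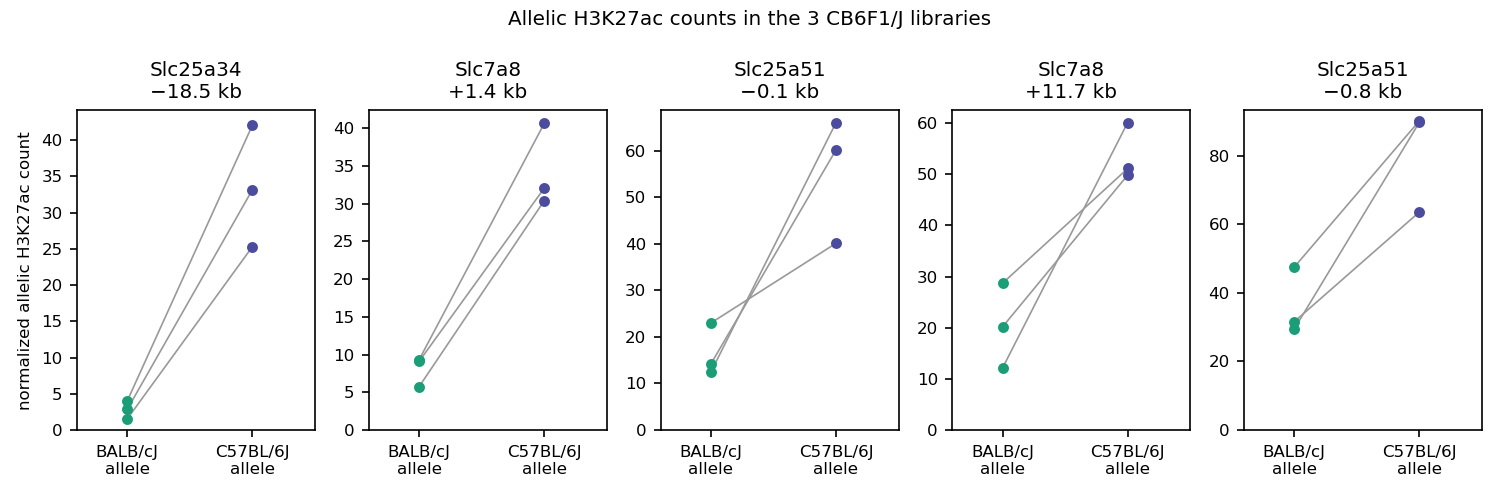
Normalized allelic H3K27ac counts (y axis, starting at 0) are shown for the BALB/cJ and the C57BL/6J allele (x axis) in the 5 called carrier regions, with the distance to the TSS above each panel. Grey lines join the 2 alleles of 1 library. All 15 lines climb toward the C57BL/6J allele, at the Slc25a34 region to values between 25.3 and 42.1.

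Called regions of Slc25a34 and Slc25a51 are shown because they held the largest allelic difference and the one next to a TSS, and the letters are those of the 200 reference bases counted (chr4:141642193-141642392 and chr4:45408718-45408917). The first held 1 PU.1 match, on the minus strand, a pattern present in 8.59% of window centers. The second held 1 E-box match, present in 5.12% of them. Which bases differ between the alleles was not analysed here.
Slc25a34 region: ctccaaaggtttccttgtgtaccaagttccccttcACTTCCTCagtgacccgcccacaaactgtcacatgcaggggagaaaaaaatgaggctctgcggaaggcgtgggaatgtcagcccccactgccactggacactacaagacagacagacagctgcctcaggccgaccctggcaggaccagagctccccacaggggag
Slc25a51 region: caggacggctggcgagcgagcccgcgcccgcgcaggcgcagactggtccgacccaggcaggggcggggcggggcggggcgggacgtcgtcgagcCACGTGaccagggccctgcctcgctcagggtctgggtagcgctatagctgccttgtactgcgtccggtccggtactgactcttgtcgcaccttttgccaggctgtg

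Summing regions into the 1000-bp windows brought more windows over the filter, 46 in all, of which 8 were called (17.4%, against 7.20% of all 5234 summed windows). Overlapping windows can share regions, so the 46 and the 8 are not all separate readings. Among the 8 were Slc39a11 intron 5 and Slc35e1 intron 4, which were under the filter as single regions. The Slc39a11 window had 9.14, 47.0 and 36.9 from the BALB/cJ allele and 6.03, 4.38 and 3.94 from the C57BL/6J allele (log2 fold change 2.74 ± 0.63 (SE), adjusted p = 0.0076), beside 2.80 between the strains. At Slc35e1 there were 3.05, 4.55 and 2.05 from the BALB/cJ allele and 39.2, 32.2 and 17.7 from the C57BL/6J allele (log2 fold change -3.10 ± 0.62 (SE), adjusted p = 0.0028), beside -1.68 between the strains.

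The difference between the strain contrast and the allele contrast was tested at 33 carrier windows of 16 genes that had an allelic region within 500 bp of their center. Some of these windows share an allelic region, so they are not all separate readings. None of the 33 windows passed an adjusted p of 0.05 with edgeR, against 2.18% of 3855 windows in all. An unadjusted p under 0.05 was found in 10 of the 33, against 399 of all 3855. DESeq2 was not run for this test. At Slc25a51 the TSS window had a log2 fold change of -0.31 between strains and -1.79 between alleles, a difference of 1.51 ± 0.44 (SE), adjusted p = 0.066. With blocks for strain replicate and hybrid library the adjusted p was 0.03. Slc7a8 at 1.345 kb had -0.40 between strains and -2.05 between alleles (1.67 ± 0.52 (SE), adjusted p = 0.1 for the difference, and 0.048 with the blocks). The Slc25a34 window in Plekhm2, at 18.418 kb, was the 1 window called in both, with -1.70 between strains and -3.55 between alleles (1.93 ± 0.67 (SE), adjusted p = 0.17).

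Of the 7 joined windows called between strains, 3 belonged to Slc38a9, 2 to Slc25a26 and 1 each to Slc25a33 and Slc25a34. Without C57BL/6J library 3 the strain call remained in 3 of the 7, those of Slc25a26 and Slc25a34, and 4 remained without C57BL/6J library 1 or BALB/cJ library 2. The Slc25a33 window was lost in 5 leave-one-out fits (adjusted p up to 0.21). The Slc38a9 window at 6.033 kb had -1.07 between strains and 0.21 between alleles, and the difference was -1.29 ± 0.45 (SE), adjusted p = 0.18. The Slc25a26 window at 9.121 kb had 1.28 between strains and -0.40 between alleles, with a difference of 1.67 ± 0.64 (SE), adjusted p = 0.26. A difference that misses the threshold at this depth does not show that strain and allele contrasts are equal.

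**Figure D5:**
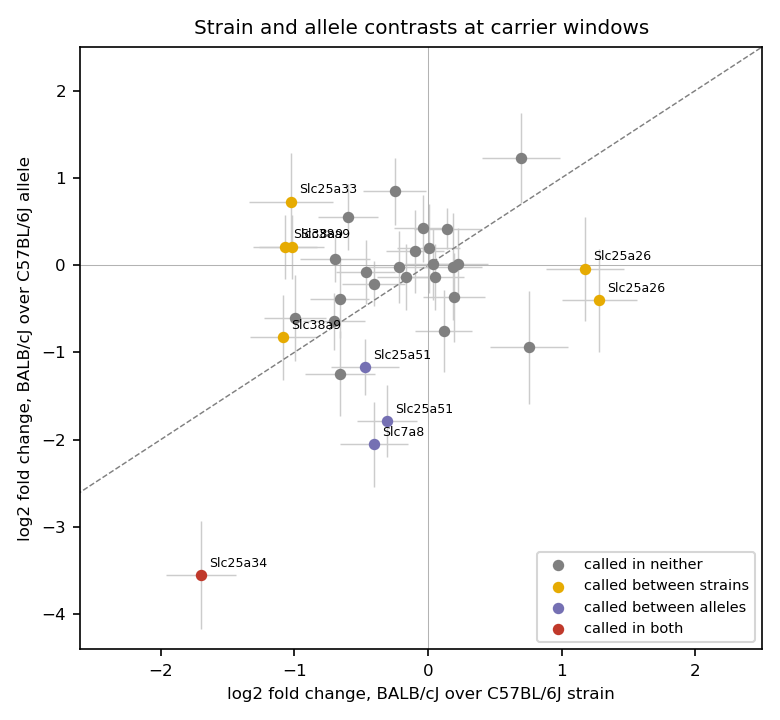
The log2 fold change of BALB/cJ over C57BL/6J between strains (x axis) is plotted against that between alleles of the hybrid (y axis) for 33 carrier windows. Bars are standard errors, the dashed line marks equal values, and colors show in which contrast a window was called. Slc25a34 lies lowest, at -1.70 and -3.55, and the 2 Slc25a26 windows lie right of 0 with allele values of -0.04 and -0.40.

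Promoters of 84 of the 106 carrier genes were matched by symbol in the RefSeq table, 108 promoters in all. Antioxidant response letters were found in 17.6% of them, against 12.4% of all 32851 promoters, metal response letters in 52.8% against 51.0%, E-boxes in 11.1% against 7.15%, AP-1 letters in 5.56% against 7.81%, amino acid response letters in 2.78% against 3.97% and the PU.1 letters in 0.926% against 3.20%. The amino acid response letters stood in promoters of Slc7a7 and Slc7a11. These are counts of letters, with no test.

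Of the 54 tested genes with no called window, 24 were mitochondrial carriers, 12 Slc35 genes, 8 Slc39a genes, 5 Slc7a genes, 4 Slc38a genes and 1 a Slc2a gene, Slc2a8. They included genes with high acetylation. The highest window of Slc25a36, a pyrimidine nucleotide carrier, averaged 429.9 normalized counts, that of Slc25a1, the citrate carrier, 254, and that of Slc39a7, which releases zinc from the endoplasmic reticulum, 441. At the other end were Slc25a18, a glutamate carrier, with 21.8 in its highest window, and Slc39a12 with 23.0.

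Genes of the same pathways outside the 6 families were examined as a list of 43 genes, of which 41 had tested windows. The heavy chains Slc3a1 and Slc3a2, partners of Slc7a light chains, had 0 called of 7 tested windows. At Slc16a1, a lactate and pyruvate transporter, the promoter had 204, 125 and 131 in A/J, 245, 124 and 253 in BALB/cJ and 61.3, 32.6 and 49.1 in C57BL/6J. Both A/J (1.66 ± 0.30, adjusted p = 0.00035 on the log2 scale) and BALB/cJ (2.11 ± 0.30, adjusted p = 1.4e-05) were higher. Hk2, a hexokinase that traps glucose in the cell, was lower in A/J (-1.26 ± 0.25, adjusted p = 0.0012) and BALB/cJ (-1.13 ± 0.25, adjusted p = 0.0028) than in C57BL/6J at 2.311 kb. Slc30a5, which loads zinc into the secretory pathway, had a window 1.635 kb upstream with 1.47, 5.93 and 9.70 in A/J, 48.1, 82.4 and 48.9 in BALB/cJ and 42.6, 39.6 and 67.4 in C57BL/6J, again with A/J low (-3.28 ± 0.46, adjusted p = 3.2e-05 against BALB/cJ). In the list of mitochondrial transport, which holds the pyruvate carriers, the voltage-dependent anion channels and uncoupling proteins, called windows belonged to Ucp3 only. Over the whole list, 3 windows were higher and 8 lower in A/J over BALB/cJ, 5 higher and 12 lower in A/J over C57BL/6J, and 8 higher and 13 lower in BALB/cJ over C57BL/6J, of 297 tested. These are 3.70%, 5.72% and 7.07%, against 3.63%, 7.09% and 8.56% over all windows.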

How the data were processed

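H3K27ac ChIP–seq was done on Kupffer cells sorted by flow cytometry. The authors aligned reads with Bowtie2 to the genome of each strain, shifted positions to mm10 with MMARGE and counted tags with HOMER. The deposited parental table holds estimated counts per 1000-bp window around merged ATAC–seq peaks of control and LPS-treated cells, in steps of 0.5 in the libraries numbered 2. The deposited hybrid table holds estimated counts per allele from reads spanning variants. Tool versions are not given in the sources used here. Strain genomes carried single-base and short variants.

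Counts were rounded to whole numbers. Windows with a mean normalized count over 16 were tested with edgeR 4.0.16 (R 4.3.3) by the quasi-likelihood test with TMM, all 9 parental libraries in 1 fit and Benjamini–Hochberg adjustment over all tested windows (adjusted p 0.05, log2 fold change 1). The standard error is the size of the log2 fold change over the square root of F. Alleles were tested likewise on autosomes, and the difference of contrasts as an interaction term. DESeq2 1.42.0 and the other settings below were alternatives. On simulated data, 17 of 100 windows changed 2-fold and 91 of 100 changed 4-fold were recovered between strains, and 19 and 76 of 100 between alleles. Recovery here means an adjusted p under 0.05 alone, without the fold threshold that a call also needs. The simulated spread between allele columns was below that of the data, so the allelic recovery may be too high. Pairing of libraries was not simulated. Depth was 2291426 to 12980348 tags per parental library and 181378 to 400395 per allele column.

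Parental libraries with the same replicate number deviated together (r from 0.23 to 0.41 in every pair of strains, other numbers -0.32 to 0.063, and for each of 9 libraries the same number in the other strains was the closest), so the numbers pair them. The blocked value stands beside a named result where it ends the call. With the block alone, a further 8 (A/J over BALB/cJ), 5 (A/J over C57BL/6J) and 11 (BALB/cJ over C57BL/6J) carrier windows were called. Not all of these are described here.

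Members and lists were chosen with earlier results of these data known. Named with values were up to 12 genes a direction with the largest called fold changes in each comparison, called alleles, the 3 highest start sites of each family, 16 genes of known role and genes called in both directions of 1 comparison. A few items are not reported here.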

Additional observations from a re-analysis of the deposited data

How the results depend on the processing

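Counts of called carrier windows stayed within 1.5 times the reported 23 (A/J over BALB/cJ), 49 (A/J over C57BL/6J) and 47 (BALB/cJ over C57BL/6J) under every alternative but 2, both of them a library left out. Leaving out each library in turn gave 14 to 24, 28 to 52 and 33 to 53 calls, the 14 without BALB/cJ library 3 and the 28 without C57BL/6J library 3. The replicate block gave 31, 52 and 57 calls. These are 8.14%, 13.6% and 15.0% of tested carrier windows, against 5.39%, 8.91% and 10.5% over all windows with this block. It kept 23, 47 and 46 of the calls above, and it ended none but the 3 named in the text. DESeq2 gave 21, 45 and 42. It ended 11 of the strain calls and leaving out the shallow libraries 12, all named in the text but 1 at 11.323 kb of Slc7a8 (A/J over C57BL/6J, fold change -0.99 with DESeq2) and 1 at 0.577 kb of Slc25a13 (A/J over BALB/cJ, adjusted p = 0.058 with DESeq2 and 0.064 without the shallow libraries). Windows with at least 3 ChIP input reads in both strains held 23, 35 and 32. That minimum is harder to reach in the C57BL/6J input, a single library of 583518 tags, than in the pooled inputs of the other strains. Leaving out the 3 shallow libraries together, chosen after seeing the data, gave 24, 60 and 62, and the share of A/J over C57BL/6J calls higher in A/J was then 26.7%, against 38.8%. That share was 25.7% with the input minimum. The share higher in BALB/cJ over C57BL/6J was 39.4% with a mean count over 32, against 53.2%. Over all windows, 2583 of 5978 A/J over C57BL/6J calls were higher in A/J without the shallow libraries, against 1908 of 4282 with them. With a mean count over 32, 1651 of 3267 BALB/cJ over C57BL/6J calls over all windows were higher in BALB/cJ, against 2693 of 5171. The 5 allelic calls became 3 with a mean count over 32 (15.8%, against 6.87% over all regions) and 8 with regions summed into windows. They became 0 with the hybrid library as a replicate block and 0 to 6 with 1 hybrid library left out. Differences between strain and allele contrasts, 0 as reported, were 1 with DESeq2 size factors (2.94%, against 2.72% over all windows). They were 2 with replicate blocks (6.06%, against 3.35%) and 0 to 1 with 1 library left out. The causes were not tested. Over single called windows and regions no value reversed its direction. The self-test recovered few 2-fold changes, so at this depth a window without a call may still differ 2-fold.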
